A study of Danio rerio with 15 samples.

Results

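The genes described here act in DNA replication and cell division, and their RNA was measured in cells sorted as neutrophils from zebrafish embryos. They are 40 genes chosen by name, 23 that act in S phase, when DNA is copied, and 17 that act in mitosis, when the copied chromosomes are separated. Every one of the 40 was present among 15837 gene names in the deposited table. The table gives rrm2 under 2 Ensembl identifiers, ENSDARG00000020711 and ENSDARG00000078069, so the members filled 41 of its 15937 entries, 24 for S phase and 17 for mitosis. All 41 entries passed the filter on low values, and the reads behind 1 value ranged from 48 to 16606.

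The cells were sorted by an mpx:GFP reporter, in which the promoter of the neutrophil enzyme gene mpx (myeloperoxidase) drives a green fluorescent protein, and their RNA was sequenced in 15 libraries. At 2 days post fertilization (dpf) there were 3 libraries each of embryos labelled tet2/3DM, read here as mutant in both tet2 and tet3, of tet3-/- embryos, of tet2-/- embryos and of wildtype embryos. A further 3 libraries came from wildtype embryos at 1.5 dpf (35 hours). The reporter is stated for the whole series, and the sources used here give neither the alleles nor how many embryos went into a library. tet2 and tet3 encode enzymes that oxidise methylated cytosine in DNA.

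A cell that is about to divide loads the MCM helicase onto its replication origins with the help of Cdc6 and Cdt1. Cdc45 and the GINS complex then switch the helicase on. Polymerase α, PCNA, RPA and the nick-sealing enzymes are among the proteins that take part in copying the DNA. Ribonucleotide reductase and thymidylate synthase help to supply the nucleotides. Later Cdk1 with cyclins A and B, the Polo and Aurora kinases and the spindle motors carry the cell through mitosis. Neutrophils are known as cells that leave the cycle as they mature, while their precursors divide.

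Values below are normalised read counts, which the authors obtained by dividing read counts by a size factor for each library. Read totals recovered from these values lay between 5.64 and 31.06 M (mega) reads per library, and tet3-/- libraries 1 and 2 were the shallowest. Changes were tested with limma after a log2 transform of the value plus 1, a scale that shrinks the change of genes with low counts, with Benjamini-Hochberg adjustment over 15933 genes and a threshold of 0.05 on the adjusted p. Whether the libraries within a group come from different clutches or sorting runs is not stated, so the p-values measure the spread between libraries, which may be technical. Nor is it stated whether the groups were sorted together, so differences in age or genotype cannot be told apart from differences between sorting runs. tet2 RNA was 592 to 2529 in tet2/3DM, 960.5 to 1334 in tet3-/- and 1462 to 1994 in tet2-/-, against 1542 to 1894 in wildtype at 2 dpf. tet3 RNA was 1772 to 3062 in tet2/3DM, 1533 to 2237 in tet3-/- and 1432 to 2101 in tet2-/-, against 1166 to 1620.4 in wildtype at 2 dpf. Neither gene passed in any mutant, and since such counts do not show which allele is transcribed, they do not check the genotype labels. Of 14 tested neutrophil markers none was at 0 in any library, and mpx ranged from 25586 to 89852 and lyz, which encodes lysozyme, from 68382 to 198730 over the 15 libraries.

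Across the 5 groups the cell cycle genes were highest in wildtype neutrophils at 1.5 dpf. All 41 entries had their highest group mean there. In 31 of the 41, 19 of S phase and 12 of mitosis, the lowest of the 3 libraries at 1.5 dpf lay above all 12 libraries at 2 dpf, mutants included. The share of all genes that did so is not given here for either count. Each library was summarised by the median of its 41 log2 differences from the mean of wildtype at 2 dpf. This median was 0.29, -0.17 and 0.06 in tet2/3DM, 0.07, 0.01 and 0.03 in tet3-/-, 0.23, 0.00 and -0.04 in tet2-/-, 0.02, 0.01 and -0.03 in wildtype at 2 dpf and 0.67, 0.66 and 0.87 in wildtype at 1.5 dpf. The 3 libraries at 1.5 dpf stood apart from the other 12, whose medians overlapped between genotypes. Together the members took 0.366 to 0.467% of all normalised counts in tet2/3DM, 0.434 to 0.452% in tet3-/-, 0.343 to 0.465% in tet2-/-, 0.362 to 0.370% in wildtype at 2 dpf and 0.574 to 0.812% in wildtype at 1.5 dpf. In this share all 3 tet3-/- libraries lay above all 3 of wildtype at 2 dpf, while tet2/3DM and tet2-/- overlapped wildtype. The member medians of tet3-/-, 0.01 to 0.07, overlapped those of wildtype at 2 dpf, -0.03 to 0.02. The share thus does not show a rise across the members. It depends on the total of each library and most on entries with high counts, such as mki67 (means 7144 in tet3-/- and 5457 in wildtype at 2 dpf). These differences in share were not tested, and no like share of other genes is given here.

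**Figure D1:**
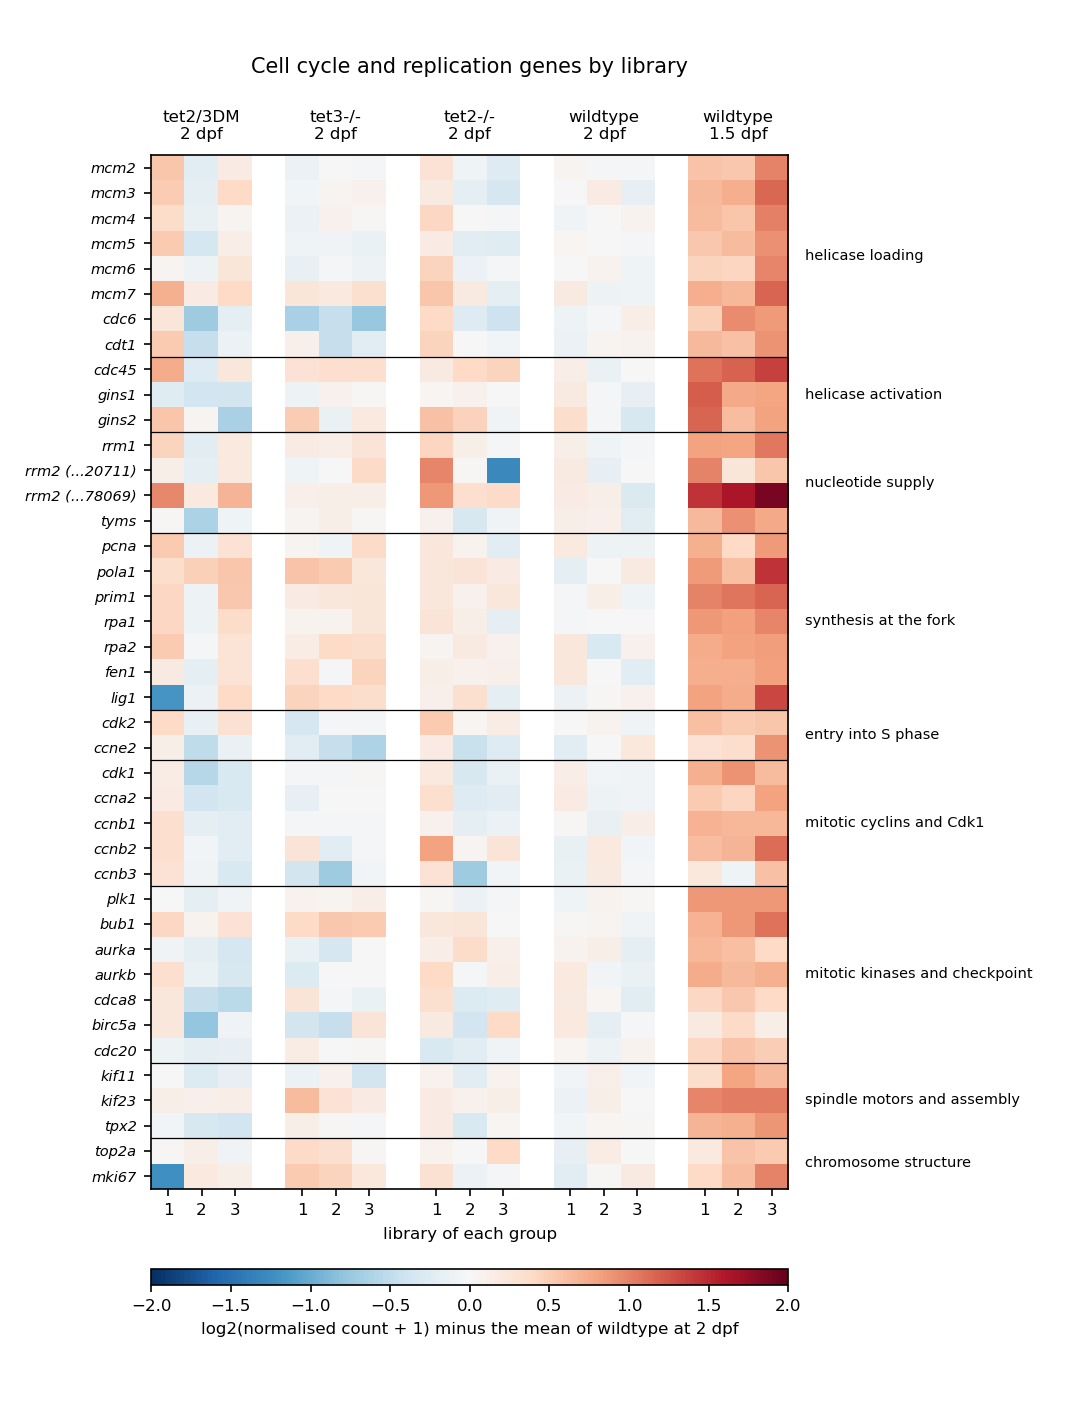
Level of each of the 41 entries (down the page, grouped by role) in each of the 15 libraries (across), as log2(normalised count + 1) minus the mean of wildtype at 2 dpf; red is higher and blue lower. Of 369 mutant values 9 lie more than 0.75 log2 units from the mean of wildtype at 2 dpf, as do 55 of 123 in wildtype at 1.5 dpf. The shares over all genes are not given here. The 3 mutant values beyond 1 unit are lig1 and mki67 in tet2/3DM library 1 and rrm2 ENSDARG00000020711 in tet2-/- library 3, all lower.

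**Figure D2:**
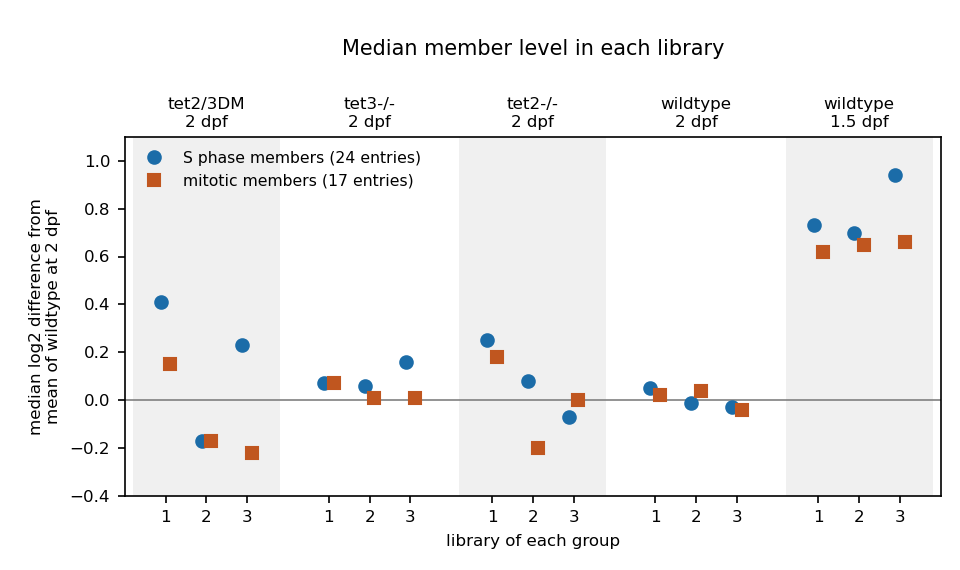
Median log2 difference from the mean of wildtype at 2 dpf over the 24 S phase entries (blue circles) and the 17 mitotic entries (orange squares), 1 point for each library. Both medians lie between 0.62 and 0.94 in the libraries at 1.5 dpf and between -0.22 and 0.41 in the others.

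The first comparison set wildtype neutrophils at 2 dpf against those at 1.5 dpf. The genes of both phases fell with age: 31 of 41 entries were lower at 2 dpf and 0 were higher, and the 31 were 19 of 24 for S phase and 12 of 17 for mitosis. Over all genes tested 9.18% were lower and 11.6% higher. All 41 estimates were negative, with a median log2 change of -0.75 for the members, -0.78 for S phase and -0.67 for mitosis, against 0.01 over all genes. A change of -0.75 is a level 40.5% lower. In 39 of 41 entries all 3 libraries at 2 dpf lay below all 3 at 1.5 dpf, as did 20.9% of all genes. In bulk RNA fewer dividing cells and less of these RNAs per cell cannot be told apart. Here and below, a fall or rise with age names the difference between these 2 groups of libraries, whose sorting runs are not stated.

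The number of calls rested in part on single wildtype libraries. It was 21, 18 and 16 without wildtype 2 dpf libraries 1, 2 and 3, and 24, 25 and 23 without 1.5 dpf libraries 1, 2 and 3, while the direction of the median did not change. Of all genes 6.22%, 5.08% and 4.91% were lower without those 2 dpf libraries, and 5%, 6.15% and 8.42% without those 1.5 dpf libraries. Without tet2/3DM library 1 and tet2-/- library 1, the highest of their groups in most entries, it was 35, where 13.3% of all genes were lower, and without tet3-/- libraries 1 and 2 it was 26, where 7.16% were, both chosen after the data were seen. Called under all 26 alternatives were 14 entries: mcm4, mcm7, cdc45, gins1, rrm1, rrm2 (ENSDARG00000078069), pola1, prim1, rpa1, fen1, plk1, bub1, kif23 and tpx2. The share of all genes called under all 26 is not given here.

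Markers of other cells were counted between the wildtype ages too, where 9.18% of all genes were lower and 11.6% higher. Of 8 erythroid markers, among them haemoglobin genes, 8 were lower at 2 dpf, with a summed count of 2351 to 5121 at 2 dpf and 114000 to 118170 at 1.5 dpf. Of 10 pigment cell markers 9 were lower, with sums of 2400.1 to 2655 at 2 dpf and 8347 to 10980 at 1.5 dpf, and of 9 neural markers 4 were lower and 1 higher. Of 6 heat shock genes 6 were higher, with sums of 815740 to 916570 at 2 dpf and 9865 to 22242 at 1.5 dpf. Of 14 neutrophil markers 3 were lower, with sums of 229550 to 288970 at 2 dpf and 202610 to 562620 at 1.5 dpf. Of 8 muscle markers 1 was higher, with sums of 12823 to 16099 at 2 dpf and 3772 to 8393 at 1.5 dpf, and of 7 epidermal markers 1 was higher, with sums of 21478 to 28073 at 2 dpf and 3101 to 19788 at 1.5 dpf. Of 11 macrophage markers 3 were higher and 1 lower, of 11 endothelial markers 1 was higher and 4 lower, and of 10 progenitor markers 1 was higher and 2 lower. In lists of 7 to 11 markers 1 call in a direction lies near the share over all genes. No erythroid, pigment or heat shock marker was at 0 in any library.

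The same sums varied among the mutants. Heat shock sums were 15069, 374740 and 109700 in tet2/3DM libraries 1, 2 and 3, 60854 to 61809 in tet3-/- and 514310 to 1107600 in tet2-/-. Pigment sums were 7557 to 12339 in tet2/3DM, 7326 to 8861 in tet3-/- and 2503 to 6326 in tet2-/-. The highest erythroid sum at 2 dpf was 24170, in tet2-/- library 1. tet2/3DM library 1, with the lowest heat shock and the highest pigment sum at 2 dpf, also had the highest member median at 2 dpf, 0.29, against 0.66 to 0.87 in wildtype at 1.5 dpf. The next highest median at 2 dpf, 0.23, was that of tet2-/- library 1, whose heat shock sum was 717610. In tet3-/-, with heat shock sums of 60854 to 61809, the medians were 0.01 to 0.07. The part of these transcripts in the levels of the cell cycle genes was not tested.

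**Figure D3:**
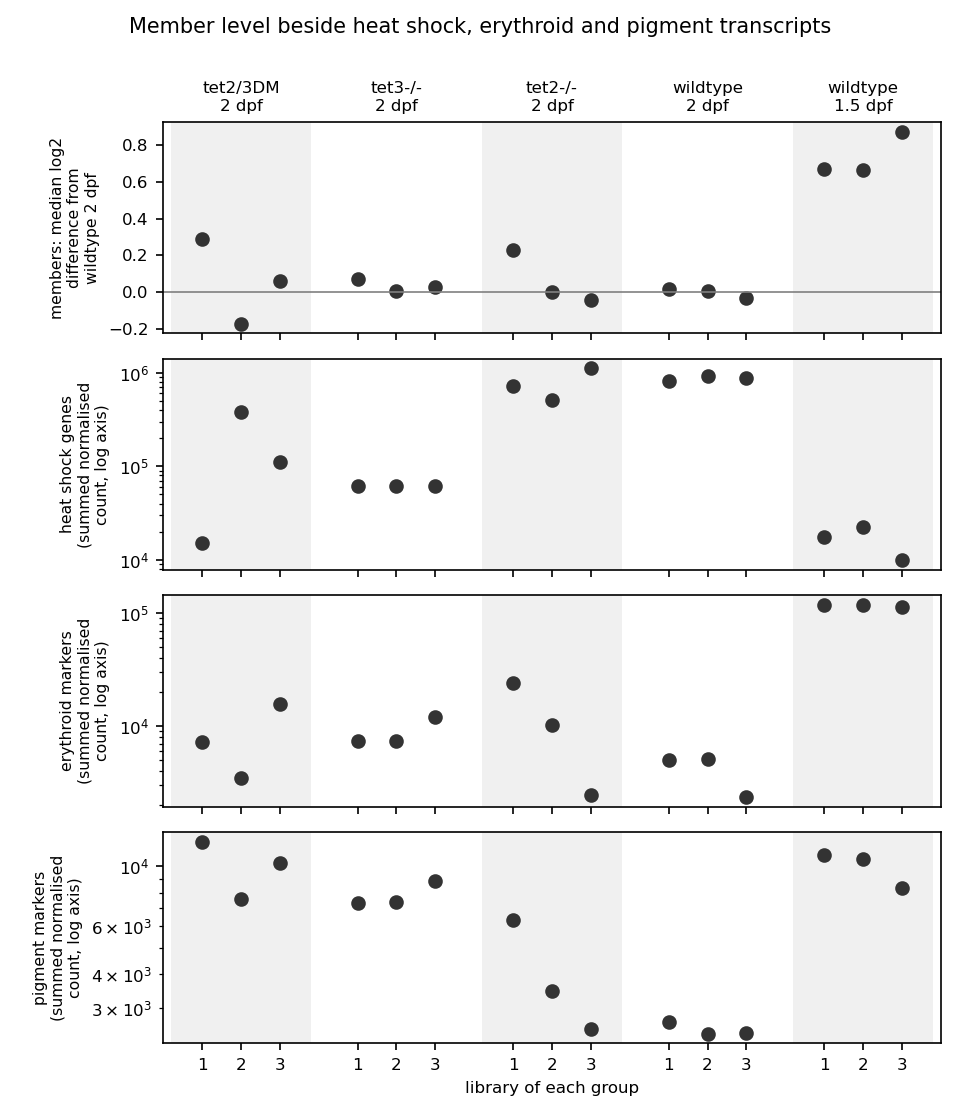
Median member level (top, log2 difference from the mean of wildtype at 2 dpf) and summed normalised counts of heat shock, erythroid and pigment genes (log axes) in each of the 15 libraries. In tet2/3DM and tet3-/- the heat shock sums lie below those of wildtype at 2 dpf and the pigment sums above them; the member medians lie between -0.17 and 0.29 in tet2/3DM, between 0.01 and 0.07 in tet3-/- and between -0.03 and 0.02 in wildtype at 2 dpf.

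**Figure D4:**
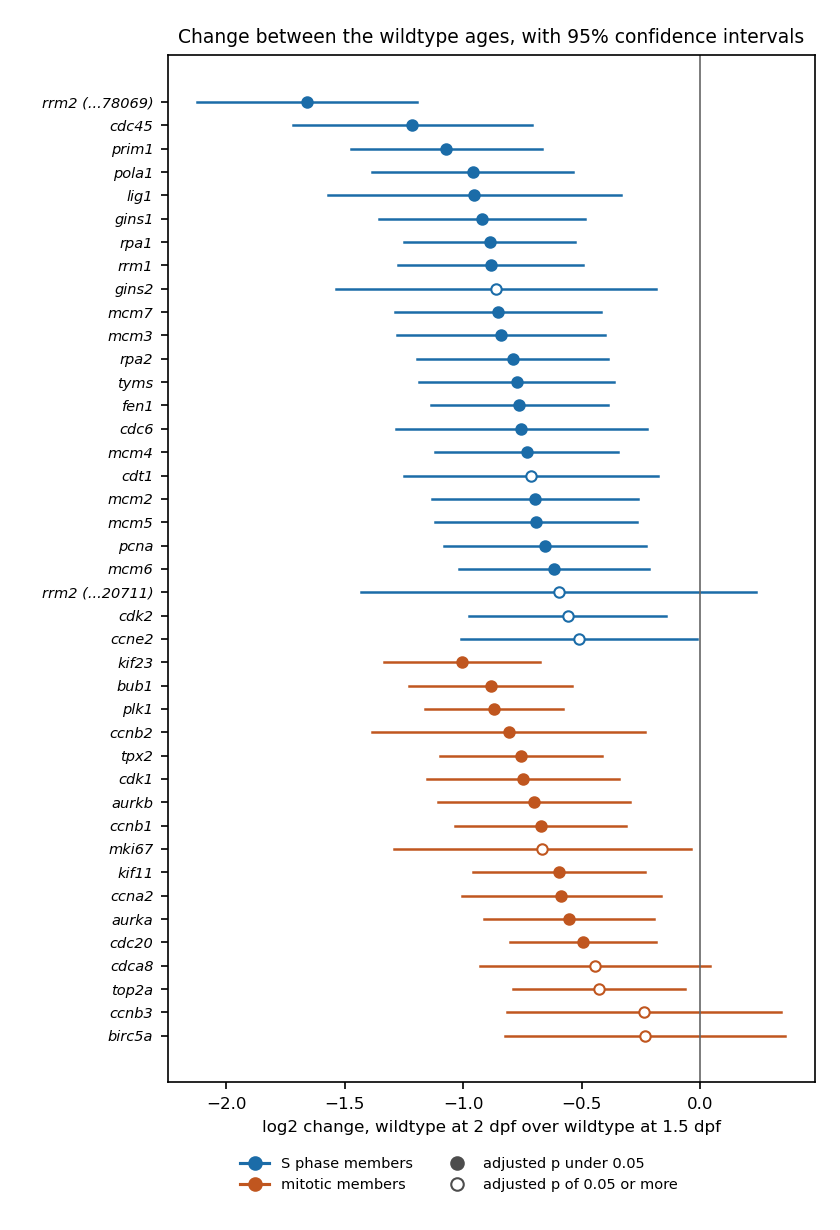
Log2 change of each entry in wildtype at 2 dpf over wildtype at 1.5 dpf, with 95% confidence intervals, for S phase (blue) and mitotic (orange) members; filled points passed the test. All 41 points lie left of 0, from -1.66 for 1 rrm2 entry to -0.23 for birc5a.

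The genes that load the helicase fell together, 7 of 8 past the test, by log2 changes of -0.85 to -0.62. mcm2, a subunit of the MCM ring, had 4516, 2619 and 3449 in tet2/3DM, 2832, 3102 and 3039 in tet3-/- and 3775, 2895 and 2562 in tet2-/-. Wildtype mcm2 had 3194, 3016 and 3018 at 2 dpf and 4566, 4456 and 6099 at 1.5 dpf. The fall of mcm2 by 2 dpf was 38.4% (log2 change -0.70, SE 0.20, limma adjusted p = 0.0241), and the wildtype ages did not overlap, while tet2/3DM library 1 reached the range of 1.5 dpf. mcm3, another subunit, had 2623, 1622 and 2437 in tet2/3DM, 1765, 1918 and 1956 in tet3-/- and 2096, 1629.6 and 1456 in tet2-/-. Wildtype mcm3 had 1843, 2052 and 1649 at 2 dpf and 2893, 3036 and 4079.7 at 1.5 dpf. With age mcm3 fell by 44.1% (log2 change -0.84, SE 0.21, limma adjusted p = 0.0097): the lowest value at 1.5 dpf exceeded the other 12 libraries. For mcm4 the counts were 3448, 2411 and 2779.8 in tet2/3DM, 2454, 2841 and 2728 in tet3-/- and 3548, 2679 and 2612 in tet2-/-. Wildtype mcm4 had 2536, 2685 and 2812 at 2 dpf and 4152, 3936 and 5380.5 at 1.5 dpf. Between the ages mcm4 was 39.8% lower at 2 dpf (log2 change -0.73, SE 0.18, limma adjusted p = 0.0104), and no library at 2 dpf, of any genotype, reached the lowest value at 1.5 dpf. mcm5 stood at 3124, 1702 and 2369 in tet2/3DM, 2032, 2069 and 1979.5 in tet3-/- and 2429.6, 1858 and 1833 in tet2-/-. Wildtype mcm5 had 2222, 2153 and 2116 at 2 dpf and 3154, 3343 and 4069 at 1.5 dpf. The fall of mcm5 by 2 dpf was 38.2% (log2 change -0.69, SE 0.20, limma adjusted p = 0.0226), and all 3 libraries at 1.5 dpf lay above the 12 libraries at 2 dpf. mcm6 had 2368, 2119 and 2694 in tet2/3DM, 2055, 2242 and 2124 in tet3-/- and 3088, 2103 and 2225 in tet2-/-. Wildtype mcm6 had 2296, 2384 and 2149 at 2 dpf and 3088, 3066 and 4492 at 1.5 dpf. With age mcm6 fell by 34.8% (log2 change -0.62, SE 0.19, limma adjusted p = 0.0294): the wildtype ages did not overlap, while tet2-/- library 1 reached the range of 1.5 dpf. The sixth subunit gene, mcm7, had 4137, 2839.6 and 3361 in tet2/3DM, 3017, 2896 and 3169.6 in tet3-/- and 3739, 2878 and 2248 in tet2-/-. Wildtype mcm7 had 2877, 2372 and 2400.4 at 2 dpf and 4212, 4039.7 and 5681 at 1.5 dpf. Between the ages mcm7 was 44.7% lower at 2 dpf (log2 change -0.85, SE 0.20, limma adjusted p = 0.00843), and the wildtype ages did not overlap, while tet2/3DM library 1 reached the range of 1.5 dpf. cdc6, whose product brings the ring to the origin, had 858, 445 and 636 in tet2/3DM, 462, 527 and 428 in tet3-/- and 956, 608 and 544 in tet2-/-. Wildtype cdc6 had 673, 711 and 797 at 2 dpf and 1006, 1399.5 and 1303 at 1.5 dpf. The fall of cdc6 by 2 dpf was 40.7% (log2 change -0.76, SE 0.25, limma adjusted p = 0.0415), and no library at 2 dpf, of any genotype, reached the lowest value at 1.5 dpf. cdt1, its partner in loading, had 444, 224 and 285 in tet2/3DM, 333, 226 and 263 in tet3-/- and 421, 307 and 297 in tet2-/-. Wildtype cdt1 had 284, 320.0 and 326 at 2 dpf and 485, 467 and 580.4 at 1.5 dpf. For cdt1 the difference of 39% between wildtype at 2 and 1.5 dpf, lower at 2 dpf, did not pass (log2 change -0.71, SE 0.25, limma adjusted p = 0.0552), and all 3 libraries at 1.5 dpf lay above the 12 libraries at 2 dpf. With 1 library left out at a time, mcm4 and mcm7 passed in all 15 fits, while the limma adjusted p reached 0.05 or more for mcm2 in 4 of 15, up to 0.0829 without wildtype 1.5 dpf library 3, for mcm3 in 1 of 15, up to 0.0513 without wildtype 2 dpf library 3, for mcm5 in 4 of 15, up to 0.074 without wildtype 2 dpf library 3, for mcm6 in 4 of 15, up to 0.113 without wildtype 1.5 dpf library 3, and for cdc6 in 9 of 15, up to 0.131 without wildtype 1.5 dpf library 2.

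Of the 3 genes that activate the helicase 2 fell. cdc45, whose product joins MCM and GINS into the working helicase, had 331, 165 and 229.8 in tet2/3DM, 240.4, 248 and 248 in tet3-/- and 222, 259.8 and 267 in tet2-/-. Wildtype cdc45 had 215, 179 and 198 at 2 dpf and 419, 449 and 512 at 1.5 dpf. Between the ages cdc45 was 56.9% lower at 2 dpf (log2 change -1.22, SE 0.24, limma adjusted p = 0.0024), and the 12 libraries at 2 dpf, mutants included, stayed below the 3 at 1.5 dpf. gins1 had 186, 168 and 169 in tet2/3DM, 203, 233 and 223 in tet3-/- and 226, 233 and 221 in tet2-/-. Wildtype gins1 had 249, 216 and 195 at 2 dpf and 508, 371 and 379.7 at 1.5 dpf. The fall of gins1 by 2 dpf was 47.2% (log2 change -0.92, SE 0.20, limma adjusted p = 0.00542), and the lowest value at 1.5 dpf exceeded the other 12 libraries. gins2, a second GINS subunit, had 239, 169 and 103 in tet2/3DM, 232, 148 and 187 in tet3-/- and 244, 226 and 154 in tet2-/-. Wildtype gins2 had 208, 159 and 131 at 2 dpf and 366, 249.96 and 286 at 1.5 dpf. For gins2 the difference of 45% between wildtype at 2 and 1.5 dpf, lower at 2 dpf, did not pass (log2 change -0.86, SE 0.32, limma adjusted p = 0.0647), and no library at 2 dpf, of any genotype, reached the lowest value at 1.5 dpf. The calls of cdc45 and gins1 held with each of the 15 libraries left out, with limma adjusted p up to 0.0151 and 0.038.

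Nucleotide supply held the largest fall among the members. rrm2 encodes the small subunit of ribonucleotide reductase, the enzyme that makes deoxynucleotides, and its entry ENSDARG00000078069 had 1095, 645 and 903 in tet2/3DM, 602, 612 and 615 in tet3-/- and 1032, 713 and 738 in tet2-/-. Wildtype rrm2 ENSDARG00000078069 had 632, 614 and 463 at 2 dpf and 1545, 1754 and 2098 at 1.5 dpf. Between the ages rrm2 ENSDARG00000078069 was 68.3% lower at 2 dpf (log2 change -1.66, SE 0.22, limma adjusted p = 0.000128), and all 3 libraries at 1.5 dpf lay above the 12 libraries at 2 dpf. The other rrm2 entry, ENSDARG00000020711, had 782, 632 and 828 in tet2/3DM, 676, 717 and 944 in tet3-/- and 1427, 729.8 and 296 in tet2-/-. Wildtype rrm2 ENSDARG00000020711 had 817, 641 and 715 at 2 dpf and 1435, 855 and 1056 at 1.5 dpf. For rrm2 ENSDARG00000020711 the difference of 33.9% between wildtype at 2 and 1.5 dpf, lower at 2 dpf, did not pass (log2 change -0.60, SE 0.39, limma adjusted p = 0.3), and the wildtype ages did not overlap, while tet3-/- library 3 and tet2-/- library 1 reached the range of 1.5 dpf. The 2 entries carry the same gene name and could share reads, so how the counts divide between them is uncertain. rrm1, the large subunit, had 4963, 3106 and 4204 in tet2/3DM, 4103, 3999 and 4383 in tet3-/- and 4930.0, 3970.0 and 3569 in tet2-/-. Wildtype rrm1 had 3957, 3448 and 3572 at 2 dpf and 6375, 6327 and 7619 at 1.5 dpf. With age rrm1 fell by 45.9% (log2 change -0.89, SE 0.18, limma adjusted p = 0.00358): the lowest value at 1.5 dpf exceeded the other 12 libraries. tyms, the thymidylate synthase gene, had 819, 515 and 757 in tet2/3DM, 832, 870.0 and 816 in tet3-/- and 848, 640.0 and 763 in tet2-/-. Wildtype tyms had 867, 859.8 and 691 at 2 dpf and 1259.6, 1512 and 1355 at 1.5 dpf. Between the ages tyms was 41.5% lower at 2 dpf (log2 change -0.77, SE 0.19, limma adjusted p = 0.0106), and no library at 2 dpf, of any genotype, reached the lowest value at 1.5 dpf. The limma adjusted p of tyms was 0.05 or more in 1 of 15 fits with a library left out, at 0.06 without wildtype 2 dpf library 3.

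All 7 genes of synthesis at the fork fell, by log2 changes of -1.07 to -0.66. pcna, the sliding clamp, had 8136, 5219.7 and 6895 in tet2/3DM, 5888, 5336 and 7319 in tet3-/- and 6622, 5955 and 4862 in tet2-/-. Wildtype pcna had 6475, 5281 and 5252 at 2 dpf and 9279.9, 7399.8 and 10214 at 1.5 dpf. The fall of pcna by 2 dpf was 36.5% (log2 change -0.66, SE 0.20, limma adjusted p = 0.0302), and the wildtype ages did not overlap, while tet2/3DM library 1 reached the range of 1.5 dpf. pola1, the catalytic subunit of polymerase α, had 1053, 1144 and 1219 in tet2/3DM, 1228, 1188 and 964 in tet3-/- and 968, 989.5 and 922 in tet2-/-. Wildtype pola1 had 732, 821 and 934 at 2 dpf and 1488, 1247 and 2239 at 1.5 dpf. With age pola1 fell by 48.6% (log2 change -0.96, SE 0.20, limma adjusted p = 0.00366): the 12 libraries at 2 dpf, mutants included, stayed below the 3 at 1.5 dpf. prim1, the primase that starts each new strand, had 452, 314 and 491 in tet2/3DM, 378, 394 and 399 in tet3-/- and 396, 357 and 395 in tet2-/-. Wildtype prim1 had 329, 366 and 319 at 2 dpf and 671, 707 and 757 at 1.5 dpf. Between the ages prim1 was 52.4% lower at 2 dpf (log2 change -1.07, SE 0.19, limma adjusted p = 0.00124), and the lowest value at 1.5 dpf exceeded the other 12 libraries. rpa1, the large subunit of the protein that coats single-stranded DNA, had 2726, 1914 and 2632 in tet2/3DM, 2161, 2149 and 2436 in tet3-/- and 2463, 2233 and 1804 in tet2-/-. Wildtype rpa1 had 2013, 2068 and 2068 at 2 dpf and 3731, 3629.6 and 4031 at 1.5 dpf. The fall of rpa1 by 2 dpf was 46% (log2 change -0.89, SE 0.17, limma adjusted p = 0.00208), and no library at 2 dpf, of any genotype, reached the lowest value at 1.5 dpf. rpa2, its middle subunit, had 686, 469 and 579.9 in tet2/3DM, 528, 629 and 610.3 in tet3-/- and 496, 546 and 511 in tet2-/-. Wildtype rpa2 had 561.2, 386 and 507 at 2 dpf and 804, 833 and 854 at 1.5 dpf. With age rpa2 fell by 42.2% (log2 change -0.79, SE 0.19, limma adjusted p = 0.00845): all 3 libraries at 1.5 dpf lay above the 12 libraries at 2 dpf. fen1, the nuclease that trims RNA primers, had 1305, 1018 and 1394 in tet2/3DM, 1456, 1136 and 1567 in tet3-/- and 1253, 1226 and 1233 in tet2-/-. Wildtype fen1 had 1342, 1138 and 997 at 2 dpf and 1909, 1914 and 2042 at 1.5 dpf. Between the ages fen1 was 41.1% lower at 2 dpf (log2 change -0.76, SE 0.18, limma adjusted p = 0.00684), and the 12 libraries at 2 dpf, mutants included, stayed below the 3 at 1.5 dpf. lig1, the ligase that seals the lagging strand, had 705, 1463 and 2094 in tet2/3DM, 2166, 2104 and 2024 in tet3-/- and 1705, 1991 and 1404 in tet2-/-. Wildtype lig1 had 1469, 1617 and 1688 at 2 dpf and 2764, 2644 and 3994 at 1.5 dpf. The fall of lig1 by 2 dpf was 48.4% (log2 change -0.95, SE 0.29, limma adjusted p = 0.0297), and the lowest value at 1.5 dpf exceeded the other 12 libraries. tet2/3DM library 1 was far below the other 14 libraries in lig1. With 1 library left out, the limma adjusted p was 0.05 or more for pcna in 4 of 15, up to 0.108 without wildtype 2 dpf library 3, for rpa2 in 1 of 15, up to 0.0553 without wildtype 2 dpf library 2, and for lig1 in 5 of 15, up to 0.0952 without wildtype 1.5 dpf library 3, and stayed below 0.05 for pola1, prim1, rpa1 and fen1.

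Neither gene of entry into S phase passed. cdk2, the kinase that works with cyclins E and A, had 594, 404 and 554 in tet2/3DM, 357, 444 and 441 in tet3-/- and 644, 461 and 498 in tet2-/-. Wildtype cdk2 had 448, 472 and 431 at 2 dpf and 683, 648 and 659.9 at 1.5 dpf. For cdk2 the difference of 32.1% between wildtype at 2 and 1.5 dpf, lower at 2 dpf, did not pass (log2 change -0.56, SE 0.20, limma adjusted p = 0.0534), and no library at 2 dpf, of any genotype, reached the lowest value at 1.5 dpf. ccne2, a cyclin E gene, had 614, 397 and 515 in tet2/3DM, 489, 411 and 370.4 in tet3-/- and 637, 417 and 475 in tet2-/-. Wildtype ccne2 had 483, 574 and 661 at 2 dpf and 692, 723 and 1064 at 1.5 dpf. For ccne2 the difference of 29.9% between wildtype at 2 and 1.5 dpf, lower at 2 dpf, did not pass (log2 change -0.51, SE 0.24, limma adjusted p = 0.135), and all 3 libraries at 1.5 dpf lay above the 12 libraries at 2 dpf.

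Of the 5 entries for Cdk1 and its cyclins 4 fell, and the B cyclins differed among themselves. cdk1, the mitotic kinase, had 1593, 964 and 1164 in tet2/3DM, 1389.6, 1417 and 1458 in tet3-/- and 1639, 1152 and 1304 in tet2-/-. Wildtype cdk1 had 1568, 1380.4 and 1365 at 2 dpf and 2352, 2670.1 and 2234 at 1.5 dpf. The fall of cdk1 by 2 dpf was 40.5% (log2 change -0.75, SE 0.19, limma adjusted p = 0.0118), and the 12 libraries at 2 dpf, mutants included, stayed below the 3 at 1.5 dpf. ccna2, cyclin A, had 1482, 1011 and 1075 in tet2/3DM, 1186, 1329 and 1329.8 in tet3-/- and 1668, 1110.0 and 1141 in tet2-/-. Wildtype ccna2 had 1487, 1230.5 and 1264 at 2 dpf and 1908, 1779.6 and 2305 at 1.5 dpf. With age ccna2 fell by 33.4% (log2 change -0.59, SE 0.20, limma adjusted p = 0.0462): the lowest value at 1.5 dpf exceeded the other 12 libraries. ccnb1 had 1696, 1184 and 1148 in tet2/3DM, 1329, 1316 and 1309.5 in tet3-/- and 1439, 1173 and 1249 in tet2-/-. Wildtype ccnb1 had 1367, 1219 and 1476 at 2 dpf and 2193, 2134 and 2135 at 1.5 dpf. Between the ages ccnb1 was 37.3% lower at 2 dpf (log2 change -0.67, SE 0.17, limma adjusted p = 0.0113), and no library at 2 dpf, of any genotype, reached the lowest value at 1.5 dpf. ccnb2 had 178, 136 and 121 in tet2/3DM, 169, 120.3 and 138 in tet3-/- and 248, 146 and 169.8 in tet2-/-. Wildtype ccnb2 had 127, 162 and 137 at 2 dpf and 217, 228 and 309 at 1.5 dpf. The fall of ccnb2 by 2 dpf was 42.9% (log2 change -0.81, SE 0.27, limma adjusted p = 0.0449), and the wildtype ages did not overlap, while tet2-/- library 1 reached the range of 1.5 dpf. ccnb3 had 514, 399.5 and 341 in tet2/3DM, 325, 256 and 408 in tet3-/- and 517, 256 and 405 in tet2-/-. Wildtype ccnb3 had 383, 476 and 411 at 2 dpf and 486, 398 and 632 at 1.5 dpf. For ccnb3 the difference of 15.1% between wildtype at 2 and 1.5 dpf, lower at 2 dpf, did not pass (log2 change -0.24, SE 0.27, limma adjusted p = 0.579), and the wildtype ages overlapped, and the lowest value at 1.5 dpf was reached by tet2/3DM library 1, tet2/3DM library 2, tet3-/- library 3, tet2-/- library 1, tet2-/- library 3, wildtype at 2 dpf library 2 and wildtype at 2 dpf library 3. Without 1 library the limma adjusted p was 0.05 or more for cdk1 in 1 of 15, up to 0.0513 without wildtype 2 dpf library 3, for ccnb1 in 1 of 15, up to 0.0596 without wildtype 2 dpf library 2, for ccna2 in 10 of 15, up to 0.145 without wildtype 2 dpf library 2, and for ccnb2 in 11 of 15, up to 0.142 without wildtype 1.5 dpf library 3. The difference between the B cyclins in their change was not tested.

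Among the 7 kinase and checkpoint genes 5 fell. plk1, the Polo kinase, had 1795, 1575 and 1697 in tet2/3DM, 1868, 1855 and 1943 in tet3-/- and 1812, 1644 and 1729.7 in tet2-/-. Wildtype plk1 had 1667, 1864 and 1807 at 2 dpf and 3247, 3247 and 3255 at 1.5 dpf. Between the ages plk1 was 45.3% lower at 2 dpf (log2 change -0.87, SE 0.14, limma adjusted p = 0.000513), and the lowest value at 1.5 dpf exceeded the other 12 libraries. bub1, a kinase of the spindle checkpoint, had 1094, 864 and 1008 in tet2/3DM, 1078, 1198 and 1188 in tet3-/- and 966, 973 and 822 in tet2-/-. Wildtype bub1 had 831, 849.6 and 786 at 2 dpf and 1333, 1502 and 1744 at 1.5 dpf. The fall of bub1 by 2 dpf was 45.8% (log2 change -0.88, SE 0.16, limma adjusted p = 0.00151), and no library at 2 dpf, of any genotype, reached the lowest value at 1.5 dpf. aurka, the Aurora kinase of the spindle poles, had 788, 730.5 and 660.4 in tet2/3DM, 758, 659 and 837 in tet3-/- and 908, 1069.8 and 889 in tet2-/-. Wildtype aurka had 872, 899 and 730.1 at 2 dpf and 1315, 1265 and 1091 at 1.5 dpf. With age aurka fell by 31.9% (log2 change -0.55, SE 0.17, limma adjusted p = 0.0289): all 3 libraries at 1.5 dpf lay above the 12 libraries at 2 dpf. aurkb, the Aurora kinase of the chromosomal passenger complex, had 1139.6, 827 and 726 in tet2/3DM, 748, 913 and 908 in tet3-/- and 1199.8, 889 and 993 in tet2-/-. Wildtype aurkb had 1033, 869 and 826 at 2 dpf and 1513, 1416 and 1489 at 1.5 dpf. Between the ages aurkb was 38.5% lower at 2 dpf (log2 change -0.70, SE 0.19, limma adjusted p = 0.0168), and the 12 libraries at 2 dpf, mutants included, stayed below the 3 at 1.5 dpf. cdca8, which encodes borealin in the same complex, had 706, 436 and 414 in tet2/3DM, 719, 592 and 553 in tet3-/- and 757, 497 and 511 in tet2-/-. Wildtype cdca8 had 684, 619.8 and 518 at 2 dpf and 800.5, 872 and 795 at 1.5 dpf. For cdca8 the difference of 26.6% between wildtype at 2 and 1.5 dpf, lower at 2 dpf, did not pass (log2 change -0.45, SE 0.23, limma adjusted p = 0.18), and the lowest value at 1.5 dpf exceeded the other 12 libraries. birc5a, survivin, the small subunit of that complex, had 449.8, 225 and 366 in tet2/3DM, 296, 278 and 459 in tet3-/- and 436, 295 and 508 in tet2-/-. Wildtype birc5a had 439.6, 339 and 379 at 2 dpf and 436, 503 and 418 at 1.5 dpf. For birc5a the difference of 14.9% between wildtype at 2 and 1.5 dpf, lower at 2 dpf, did not pass (log2 change -0.23, SE 0.28, limma adjusted p = 0.596), and the wildtype ages overlapped, and the lowest value at 1.5 dpf was reached by tet2/3DM library 1, tet3-/- library 3, tet2-/- library 1, tet2-/- library 3 and wildtype at 2 dpf library 1. cdc20, the activator of the anaphase promoting complex, had 1039, 983 and 989.8 in tet2/3DM, 1231, 1118 and 1123 in tet3-/- and 896, 958 and 1056 in tet2-/-. Wildtype cdc20 had 1134, 1036 and 1162 at 2 dpf and 1474, 1656 and 1569 at 1.5 dpf. Between the ages cdc20 was 29.1% lower at 2 dpf (log2 change -0.50, SE 0.14, limma adjusted p = 0.0243), and all 3 libraries at 1.5 dpf lay above the 12 libraries at 2 dpf. With 1 library left out, the limma adjusted p was 0.05 or more for aurka in 5 of 15, up to 0.132 without wildtype 2 dpf library 3, for aurkb in 3 of 15, up to 0.0744 without wildtype 2 dpf library 3, and for cdc20 in 5 of 15, up to 0.0995 without wildtype 2 dpf library 2, and stayed below 0.05 for plk1 and bub1.

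All 3 spindle genes fell. kif23, a motor of the central spindle, had 1046, 1045 and 1061 in tet2/3DM, 1511, 1181 and 1088 in tet3-/- and 1086, 1032 and 1051 in tet2-/-. Wildtype kif23 had 898, 1048 and 969.9 at 2 dpf and 1902, 1978 and 1971 at 1.5 dpf. The fall of kif23 by 2 dpf was 50.2% (log2 change -1.01, SE 0.16, limma adjusted p = 0.000435), and the 12 libraries at 2 dpf, mutants included, stayed below the 3 at 1.5 dpf. kif11, the motor that pushes the poles apart, had 2384, 1965 and 2119 in tet2/3DM, 2206, 2525 and 1852 in tet3-/- and 2518, 2063 and 2495 in tet2-/-. Wildtype kif11 had 2308, 2553 and 2309 at 2 dpf and 3047, 4135 and 3739 at 1.5 dpf. With age kif11 fell by 33.9% (log2 change -0.60, SE 0.17, limma adjusted p = 0.0221): the lowest value at 1.5 dpf exceeded the other 12 libraries. tpx2, a spindle assembly factor that activates Aurora A, had 2233, 1855 and 1785 in tet2/3DM, 2509.7, 2362 and 2254 in tet3-/- and 2612, 1883 and 2389 in tet2-/-. Wildtype tpx2 had 2235, 2374 and 2350.5 at 2 dpf and 3698, 3808 and 4279 at 1.5 dpf. Between the ages tpx2 was 40.8% lower at 2 dpf (log2 change -0.76, SE 0.16, limma adjusted p = 0.00407), and no library at 2 dpf, of any genotype, reached the lowest value at 1.5 dpf. kif23 and tpx2 passed with each of the 15 libraries left out, and the limma adjusted p of kif11 was 0.05 or more in 3 of 15, up to 0.0906 without wildtype 1.5 dpf library 2. The 2 chromosome structure genes did not pass. top2a, topoisomerase II, had 4382, 4692 and 4116 in tet2/3DM, 5611, 5371 and 4388 in tet3-/- and 4505, 4292 and 5684 in tet2-/-. Wildtype top2a had 3844, 4765 and 4348 at 2 dpf and 4944, 6364 and 6159.7 at 1.5 dpf. For top2a the difference of 25.6% between wildtype at 2 and 1.5 dpf, lower at 2 dpf, did not pass (log2 change -0.43, SE 0.17, limma adjusted p = 0.086), and the wildtype ages did not overlap, while tet3-/- library 1, tet3-/- library 2 and tet2-/- library 3 reached the range of 1.5 dpf. mki67, the Ki-67 gene used widely as a mark of cycling cells, had 2317, 6241 and 5909.7 in tet2/3DM, 7804, 7367 and 6263 in tet3-/- and 6727, 5026 and 5273 in tet2-/-. Wildtype mki67 had 4692, 5534 and 6145 at 2 dpf and 7122, 8345 and 10734 at 1.5 dpf. For mki67 the difference of 37% between wildtype at 2 and 1.5 dpf, lower at 2 dpf, did not pass (log2 change -0.67, SE 0.29, limma adjusted p = 0.12), and the wildtype ages did not overlap, while tet3-/- library 1 and tet3-/- library 2 reached the range of 1.5 dpf. As in lig1, tet2/3DM library 1 was the lowest of all 15 libraries in mki67. Without that library, which belongs to neither wildtype age, the fall of mki67 with age passed the test (limma adjusted p = 0.0173). In all, mki67 passed under 4 of 26 alternatives, and not by edgeR or DESeq2.

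The next comparisons asked what loss of tet2, tet3 or both did to these genes at 2 dpf. By limma 0 of the 41 entries passed in any of the 3 mutants against wildtype at 2 dpf. Among all genes 8.68% passed in tet2/3DM, 7.27% in tet3-/- and 0.1% in tet2-/-. At an unadjusted p under 0.05 there were 2 of 41 entries in tet2/3DM, 4 in tet3-/- and 1 in tet2-/-, where all genes gave 22.9% in tet2/3DM, 22.8% in tet3-/- and 6.29% in tet2-/-. edgeR on the recovered reads called 0 in each mutant, and DESeq2 called 0 in tet2/3DM, 1 in tet3-/-, which was bub1, and 0 in tet2-/-. Of all genes DESeq2 called 10.9% in tet3-/-, and the other shares by edgeR and DESeq2 are not given here. Estimates ran from -0.33 to 0.61 in tet2/3DM, from -0.62 to 0.49 in tet3-/- and from -0.20 to 0.53 in tet2-/-. A miss of the threshold does not show equal levels, but the 95% intervals bound the change. They lay within a 2-fold change either way for 40 of 41 entries in tet2/3DM, 38 in tet3-/- and 41 in tet2-/-, while over all genes 43.4% did in tet2/3DM, 43.6% in tet3-/- and 53.4% in tet2-/-. The members' intervals were also narrower, reaching 0.42 log2 units to either side in the median against 0.68 over all genes. These shares thus differ in precision too, and genes of like level were not set beside the members here.

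**Figure D5:**
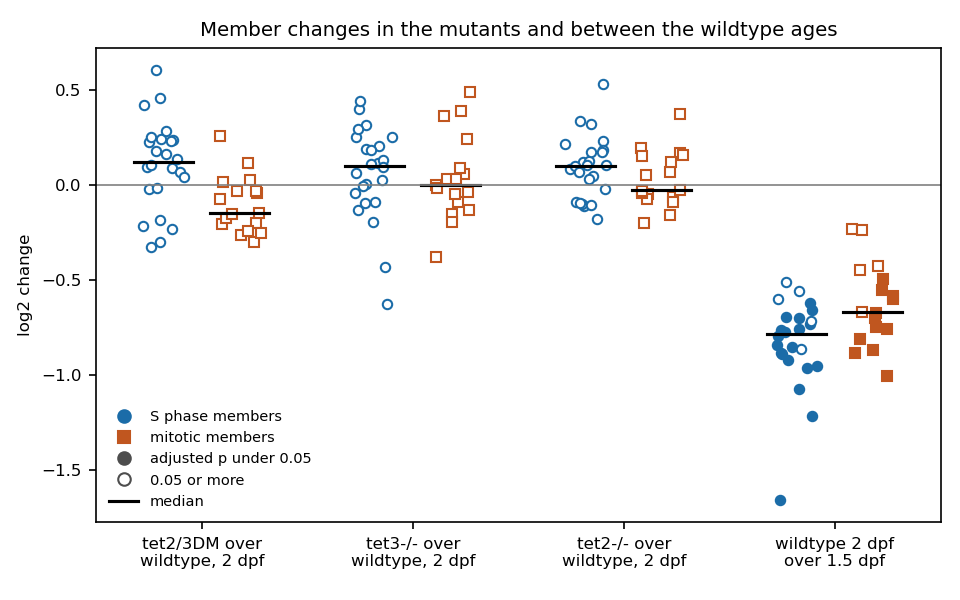
Log2 change of each S phase entry (blue circles) and mitotic entry (orange squares) in 4 comparisons, with the median of each class as a black line; filled symbols passed the test. No symbol is filled in the mutant comparisons, whose estimates lie between -0.62 and 0.61, while 31 of 41 are filled between the wildtype ages.

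In tet2/3DM the estimates of the 2 classes leaned opposite ways without passing. Of 24 S phase entries 17 were positive, with a median log2 change of 0.12, and of 17 mitotic entries 13 were negative, with a median of -0.14. Over all genes the median was 0.01. The lean was not even over the libraries. The S phase median minus the mitotic median was 0.26, 0.01 and 0.45 in tet2/3DM libraries 1, 2 and 3, 0.00, 0.05 and 0.15 in tet3-/-, 0.07, 0.28 and -0.07 in tet2-/-, 0.03, -0.05 and 0.00 in wildtype at 2 dpf and 0.11, 0.05 and 0.28 in wildtype at 1.5 dpf. Of the 3 values in tet2/3DM only that of library 3 lay outside the range of the other groups. In tet3-/- the medians were 0.10 for S phase and 0.00 for mitosis, and in tet2-/- they were 0.10 and -0.02. The calls in tet2/3DM depended on how libraries were weighted: with library weights estimated by limma 23 of 41 passed, 14 higher and 9 lower, where 48.5% of all genes did, in a fit that did not converge and gave tet2/3DM library 3 a weight of 21.84 against 0.32 and 0.40 for the other 2.

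Among S phase members the entry rrm2 ENSDARG00000078069 came closest in tet2/3DM, with 1095, 645 and 903 in tet2/3DM against 632, 614 and 463 in wildtype at 2 dpf (log2 change 0.61, SE 0.22, limma adjusted p = 0.0983). The 3 values of tet2/3DM lay above the 3 of wildtype, and the call was made without tet2/3DM library 2 (log2 change 0.82, limma adjusted p = 0.0255). In tet2-/- the same entry stood at 1032, 713 and 738, again above wildtype (log2 change 0.53, SE 0.22, limma adjusted p = 0.694). pola1 had 1053, 1144 and 1219 in tet2/3DM and 1228, 1188 and 964 in tet3-/-, against 732, 821 and 934 in wildtype. Both mutants lay above wildtype without overlap, and neither difference passed (log2 changes 0.46 and 0.44, limma adjusted p = 0.177 and 0.201). cdc6 was 462, 527 and 428 in tet3-/-, against 673, 711 and 797 in wildtype. All 3 tet3-/- values lay below wildtype, and the difference did not pass (log2 change -0.62, SE 0.25, limma adjusted p = 0.145). mcm7 had a log2 change of 0.42 in tet2/3DM (95% interval -0.01 to 0.86, limma adjusted p = 0.233) and gins1 of -0.33 (95% interval -0.76 to 0.11, limma adjusted p = 0.37). In tet3-/- ccne2 and rpa2 followed cdc6 and pola1, with log2 changes of -0.43 and 0.29 (limma adjusted p = 0.293 and 0.383). In tet2-/- cdc45, cdk2 and pola1 came next after rrm2, with log2 changes of 0.34, 0.23 and 0.22 and limma adjusted p of 0.902, 0.919 and 0.93.

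Among mitotic members bub1 came closest, in tet3-/-. Its counts were 1078, 1198 and 1188 in tet3-/-, against 831, 849.6 and 786 in wildtype at 2 dpf (log2 change 0.49, SE 0.16, limma adjusted p = 0.0787). The tet3-/- libraries lay above wildtype and below the 1333 to 1744 of wildtype at 1.5 dpf. bub1 passed in tet3-/- when only the 2 groups compared were in the fit (limma adjusted p = 0.00774), with library weights (limma adjusted p = 0.00756), by DESeq2 (adjusted p = 0.0359) and without tet2/3DM library 1 and tet2-/- library 1 (limma adjusted p = 0.0434). Of all genes 24.6%, 25.1%, 10.9% and 13% passed under these 4 alternatives. cdc6 passed under 3 of them, DESeq2 excepted. kif23 had 1511, 1181 and 1088 in tet3-/-, against 898, 1048 and 969.9 in wildtype, without overlap (log2 change 0.36, SE 0.16, limma adjusted p = 0.174). top2a and ccnb3 followed in tet3-/-, with log2 changes of 0.24 and -0.38 (limma adjusted p = 0.425 and 0.439). In tet2/3DM the smallest p-values among mitotic members belonged to bub1, tpx2, cdk1 and aurka, with log2 changes of 0.26, -0.25, -0.24 and -0.20 and limma adjusted p from 0.369 to 0.537. In tet2-/- they belonged to ccnb2, cdc20, aurka and bub1, with log2 changes of 0.38, -0.20, 0.20 and 0.16 and limma adjusted p from 0.908 to 0.937.

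The groups also differed in how far their libraries spread. The coefficient of variation over 3 libraries had a median over the 41 entries of 21.3% in tet2/3DM, 7.4% in tet3-/-, 16.6% in tet2-/-, 10.5% in wildtype at 2 dpf and 13.5% in wildtype at 1.5 dpf. Over all genes tested it was 26.1% in tet2/3DM, 17.3% in tet3-/-, 28.6% in tet2-/-, 15.5% in wildtype at 2 dpf and 24.2% in wildtype at 1.5 dpf. Over genes at or above the level of the lowest member it was 21.6% in tet2/3DM, 12.5% in tet3-/-, 23.9% in tet2-/-, 11.6% in wildtype at 2 dpf and 19.5% in wildtype at 1.5 dpf. In tet2/3DM and wildtype at 2 dpf the members' median lay close to that of this set. The set has a lower bound only, so it is not matched to the members in level. tet2/3DM library 1 was the highest of its group in 32 of 41 entries and library 2 the lowest in 29. tet2-/- library 1 was the highest of its group in 31. lig1 and mki67 were the entries in which tet2/3DM library 1 was far below its group, at 705 against 1463 and 2094 in libraries 2 and 3 for lig1 and at 2317 against 6241 and 5909.7 for mki67. The same library also had a muscle marker sum of 31327, against 855 and 1566 in the other tet2/3DM libraries, and tet2-/- library 1 had the highest sums of erythroid, neural and epidermal markers of its group, at 24170, 26177 and 87991. Its muscle sum, 19626, was also the highest of its group, and its neutrophil marker sum of 151430, against 385400 and 330390 in tet2-/- libraries 2 and 3, was the lowest of all 15 libraries. The part of these transcripts in the members' spread was not tested.

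tet2/3DM was also set against each single mutant. Between tet2/3DM and tet3-/- 0 of 41 passed by limma, edgeR or DESeq2, and 2.33% of all genes did by limma. For these comparisons and the interaction below, the shares of all genes by edgeR and DESeq2 are not given here. At an unadjusted p under 0.05 there were 3 entries by limma, 1 by edgeR and 1 by DESeq2, and 15.4% of all genes by limma. The 3 were lig1 (log2 change -0.70), mki67 (-0.69) and rrm2 ENSDARG00000078069 (0.50), and the lowest of these limma adjusted p-values was 0.259. The changes of lig1 and mki67 held the low tet2/3DM library 1. Between tet2/3DM and tet2-/- 0 of 41 passed by each tool and 4.45% of all genes did by limma. With library weights 9 of 41 passed against tet3-/- and 5 against tet2-/-, where 25.6% and 21% of all genes did. At an unadjusted p under 0.05 only aurka was found by limma, where 17.9% of all genes were. aurka had 788, 730.5 and 660.4 in tet2/3DM, against 908, 1069.8 and 889 in tet2-/-, without overlap (log2 change -0.39, SE 0.17, limma adjusted p = 0.225). The interaction asks whether tet2/3DM departs from the sum of the single mutants. It gave 0 of 41 by limma, edgeR and DESeq2, 0 of 41 at an unadjusted p under 0.05 by each of the 3, and a median log2 value of -0.10, where 0.333% of all genes passed and 8.13% had an unadjusted p under 0.05. The widest departures were those of lig1 at -0.78 and mki67 at -0.74 (limma adjusted p = 0.682 and 0.703), again with tet2/3DM library 1 in them.

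Each mutant was also set against the younger wildtype, a comparison added after the data were seen, which shares its 1.5 dpf libraries with the comparison of ages. Of 41 entries 24 were lower in tet2/3DM than in wildtype at 1.5 dpf, 11 of S phase and 13 of mitosis, where 6.39% of all genes were. In tet3-/- 24 were lower, 16 of S phase and 8 of mitosis, where 3.78% of all genes were. In tet2-/- 28 were lower, 19 of S phase and 9 of mitosis, where 8.43% of all genes were. None of the 41 was higher in any mutant, and the median log2 change was -0.71 in tet2/3DM, -0.71 in tet3-/- and -0.69 in tet2-/-. Of the 31 entries that fell between the wildtype ages, 22 were also lower in tet2/3DM, 21 in tet3-/- and 27 in tet2-/- than in the younger wildtype. Because the 1.5 dpf libraries are common to both comparisons, such overlap is partly built in. The share of all genes lower with age that were also lower in each mutant is not given here.

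Further genes of the same pathways were described from fixed lists. Between the wildtype ages 34 of 42 other replication factors fell and 0 rose, with a median log2 change of -0.81. Of all genes 9.18% fell and 11.6% rose, with a median of 0.01. orc6, a subunit of the origin recognition complex, was 189 ± 12.9 at 2 dpf and 451 ± 50.9 at 1.5 dpf (mean ± SD, n = 3; log2 change -1.24, SE 0.19, limma adjusted p = 0.000492). atad2, which encodes a chromatin ATPase, was 1166 ± 127 at 2 dpf and 2538 ± 192 at 1.5 dpf (log2 change -1.12, SE 0.17, limma adjusted p = 0.000303). ssrp1a, a subunit of the histone chaperone FACT, was 1559 ± 22.2 at 2 dpf and 2925 ± 428 at 1.5 dpf (log2 change -0.90, SE 0.16, limma adjusted p = 0.0012). Of 46 other mitotic and kinetochore genes 23 fell and 0 rose, with a median of -0.63. Among them mybl2b, a transcription factor gene of the mitotic programme, changed by -1.29, the kinetochore gene nuf2 by -1.14 and plk4, the kinase of centriole duplication, by -1.11 (log2, limma adjusted p = 0.000412, 0.000362 and 0.000559). Of 21 cohesin and condensin genes 10 fell and 1 rose, with a median of -0.57. The condensin subunit genes ncaph, ncapg2 and ncaph2 changed by -1.06, -1.32 and -1.31 (log2, limma adjusted p = 0.000177, 0.000303 and 0.000312).

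Regulators of the cycle moved less evenly with age. Of 25 E2F, Rb and G1 genes 6 fell and 1 rose, with a median log2 change of -0.38, where 9.18% of all genes fell and 11.6% rose. skp2, a subunit of a ubiquitin ligase that acts on cell cycle inhibitors, was 401 ± 57.7 at 2 dpf and 954 ± 242 at 1.5 dpf (log2 change -1.23, SE 0.22, limma adjusted p = 0.00131). rb1, the retinoblastoma gene, was 898 ± 49.8 at 2 dpf and 1539 ± 96.9 at 1.5 dpf (log2 change -0.78, SE 0.18, limma adjusted p = 0.00643), and e2f4 was 705 ± 88.7 at 2 dpf and 1245 ± 254 at 1.5 dpf (log2 change -0.81, SE 0.19, limma adjusted p = 0.00806). Of 20 checkpoint and repair genes 8 fell and 0 rose, with a median of -0.68. fancd2 and fanci, the pair at the centre of the Fanconi repair pathway, changed by -1.27 and -1.23 (log2, limma adjusted p = 0.000934 and 0.00386). Among 16 inhibitors and exit genes 4 rose and 1 fell, with a median of 0.06. Those that rose were ccng1, which encodes cyclin G (16559 ± 3006 at 2 dpf and 5436 ± 228 at 1.5 dpf, log2 change 1.59, SE 0.27, limma adjusted p = 0.000982), the growth arrest genes gadd45ba (4562 ± 268 at 2 dpf and 2032 ± 654 at 1.5 dpf, log2 change 1.22, SE 0.29, limma adjusted p = 0.00716) and gadd45aa (208 ± 14.9 at 2 dpf and 90.1 ± 42.1 at 1.5 dpf, log2 change 1.29, SE 0.39, limma adjusted p = 0.0288), and cdkn1ba, a p27 gene (852 ± 66.0 at 2 dpf and 551 ± 51.7 at 1.5 dpf, log2 change 0.63, SE 0.19, limma adjusted p = 0.0278). The 1 that fell was ccng2 (1607 ± 339 at 2 dpf and 3441 ± 1330.5 at 1.5 dpf, log2 change -1.04, SE 0.32, limma adjusted p = 0.0326). With 1 library left out at a time the limma adjusted p reached 0.05 or more in 5 of 15 fits for gadd45aa and cdkn1ba and in 4 for ccng2.

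The same lists were counted in the mutants. In tet2/3DM against wildtype at 2 dpf 0 of 42 other replication factors passed, 2 of 46 other mitotic genes fell, 0 of 21 cohesin and condensin genes passed, 2 of 25 E2F, Rb and G1 genes fell, 0 of 16 inhibitors passed and 2 of 20 checkpoint and repair genes rose, where 8.68% of all genes passed. By unadjusted p under 0.05 those lists of 0 held 5, 2 and 4 genes, where 22.9% of all genes did. Markers of other cells moved in the same comparison: of 11 macrophage markers 6 were lower and 1 higher (median log2 change -1.40), of 11 endothelial markers 6 were lower (-1.24), of 8 muscle markers 3 were lower (-2.32), of 10 pigment markers 5 were higher (2.11) and of 9 neural markers 2 were higher. All 6 heat shock genes were lower, with a median of -3.61. Macrophage sums were 22464 to 37268 in tet2/3DM, against 34076 to 37526 in wildtype, and endothelial sums were 2536 to 2920.1 in tet2/3DM, against 7785 to 8470 in wildtype. Their part in the calls that follow was not tested. e2f8, an E2F that represses transcription, had 1327, 1322 and 1499 in tet2/3DM, against 2844, 2649 and 2451 in wildtype (log2 change -0.94, SE 0.15, limma adjusted p = 0.0012). The groups did not overlap in e2f8, and it kept its call with each of the 15 libraries left out. fbxo5, the Emi1 inhibitor of the anaphase promoting complex, was 293 ± 2.49 in tet2/3DM, against 575 ± 45.3 in wildtype (mean ± SD, n = 3 each; log2 change -0.97, SE 0.25, limma adjusted p = 0.0227). nek2, a centrosome kinase gene, was 198 ± 67.9 in tet2/3DM, against 348 ± 4.02 in wildtype (log2 change -0.86, SE 0.24, limma adjusted p = 0.0331). ccne1, the second cyclin E gene, was 88.1 ± 28.7 in tet2/3DM, against 176 ± 36.5 in wildtype (log2 change -1.02, SE 0.28, limma adjusted p = 0.0344). fancd2 was 560.5 ± 145 in tet2/3DM, against 315 ± 61.9 in wildtype (log2 change 0.81, SE 0.22, limma adjusted p = 0.028). The calls of these 4 did not hold throughout: without 1 library the limma adjusted p reached 0.05 or more for fbxo5 in 5 of 15, up to 0.0922 without wildtype 2 dpf library 3, for nek2 in 5 of 15, up to 0.137 without tet2/3DM library 3, for ccne1 in 5 of 15, up to 0.147 without tet2/3DM library 3, and for fancd2 in 4 of 15, up to 0.127 without wildtype 2 dpf library 3.

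In tet3-/- against wildtype at 2 dpf 0 of 42 other replication factors, 0 of 21 cohesin and condensin genes and 0 of 25 E2F, Rb and G1 genes passed, with 5, 2 and 3 at an unadjusted p under 0.05. Over all genes 7.27% passed and 22.8% had an unadjusted p under 0.05. Of 46 other mitotic genes 1 fell, of 16 inhibitors 2 fell and 1 rose, and of 20 checkpoint and repair genes 1 rose. fbxo5 fell to 278 ± 21.7 in tet3-/-, against 575 ± 45.3 in wildtype (mean ± SD, n = 3 each; log2 change -1.04, SE 0.25, limma adjusted p = 0.0193). ccng1 was 5632 ± 1716 in tet3-/-, against 16559 ± 3006 in wildtype (log2 change -1.58, SE 0.27, limma adjusted p = 0.00331), and gadd45ba was 2153 ± 403 in tet3-/-, against 4562 ± 268 in wildtype (log2 change -1.10, SE 0.29, limma adjusted p = 0.0291). ccng2 was 3668 ± 64.6 in tet3-/-, against 1607 ± 339 in wildtype (log2 change 1.21, SE 0.32, limma adjusted p = 0.0325). ccng1 fell and ccng2 rose in tet3-/-, while between the wildtype ages ccng1 rose and ccng2 fell, and both comparisons share the libraries of wildtype at 2 dpf. Without 1 library the limma adjusted p reached 0.05 or more for fbxo5 in 5 of 15, up to 0.0838 without wildtype 2 dpf library 3, for gadd45ba in 5 of 15, up to 0.118 without tet3-/- library 1, and for ccng2 in 6 of 15, up to 0.13 without wildtype 2 dpf library 3, and never for ccng1. The heat shock sum moved with these genes, at 60854 to 61809 in tet3-/- against 815740 to 916570 in wildtype, and in the same comparison 4 of 10 pigment, 2 of 11 macrophage, 2 of 11 endothelial and 2 of 7 epidermal markers were higher and 3 of 8 muscle markers lower. The part of these transcripts was not tested. In tet2-/- 0 genes of these 6 lists passed by limma, where 0.1% of all genes did, and at an unadjusted p under 0.05 there were 1 mitotic gene, 1 of E2F, Rb and G1, and 3 inhibitors, the last being cdkn1a, cdkn1ca and ccng2, where 6.29% of all genes had such a p.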

How the data were processed

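Per the labels, libraries were made from total RNA with the TruSeq RNA v2 kit. That kit keeps no strand, so reads of a gene and an overlapping antisense gene cannot be separated. TopHat, Cufflinks and DESeq2 are named in the submitters' processing notes, without versions; for the build, annotation and read counter the sources used here give nothing. The deposited signal of each gene is its read count scaled by the authors with 1 size factor per library. This was read from the values: 100% were whole multiples of the value of 1 read (tolerance 0.01 reads, largest deviation 8.9e-05), which also gave the read totals. Genes are named as in the table, and 14 of 15 symbols that had turned into dates were restored by identifier.

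limma 3.58.1 (R 4.3.3, trend and robust) was fitted to log2(value + 1) of 15 libraries with 5 group means, two-sided, over 15933 of 15937 entries, those reaching a value of 10 in 3 or more libraries. The 5 groups thus share 1 estimate of the spread. The alternatives were edgeR 4.0.16 and DESeq2 1.42.0 on recovered reads, other pseudocounts, filters and TMM scaling, library weights, fits of the compared groups alone, a replicate block and libraries left out. The steps were tested on simulated data. No 2 libraries agreed within sampling noise: within a group the chi-square per degree of freedom was 3.94 to 283.76. The lowest value was that of tet3-/- libraries 1 and 2, against 13.26 and 13.75 for these with library 3. This value grows with read depth, and tet3-/- libraries 1 and 2 had only 5.64 and 5.96 M reads. Wildtype 2 dpf libraries 2 and 3, with 14.84 and 13.89 M reads, had 8.53. The erythroid sums of tet3-/- libraries 1 and 2 were 7394 and 7357, against 12115 in tet3-/- library 3. Whether tet3-/- libraries 1 and 2 are separate samples of embryos is not stated, so the spread within tet3-/- may be understated. The fewest reads behind a member's value were 48, in ccnb2, so counting error weighs most on members with few reads.

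Members and lists were chosen with earlier results of these data known. All 40 members could be named. Of each further list, up to 3 tested genes with the smallest p in a comparison were named, and all that passed where 5 or fewer did; 1 such gene is not reported here. Lists are described by counts and medians without a test.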

Additional observations from a re-analysis of the deposited data

How the results depend on the processing

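The 7 median log2 changes moved by less than 0.145, the spread between libraries of 1 group, under each alternative run, and no named change that passed the test reversed its direction under these alternatives. lig1 in tet2/3DM against wildtype at 2 dpf, which had not passed (log2 change -0.30), was called with the opposite sign with library weights (0.35, limma adjusted p = 0.0492). With library weights the members called were 23 in tet2/3DM against wildtype at 2 dpf, 4 in tet3-/- against wildtype at 2 dpf, 9 between tet2/3DM and tet3-/- and 5 between tet2/3DM and tet2-/-, in place of 0, where 48.5%, 25.1%, 25.6% and 21% of all genes were called in these 4 comparisons. That fit did not converge, and its weight for tet2/3DM library 3 was 21.84, against 0.32 and 0.40 for its fellows; the cause of the added calls was not tested beyond this. In tet3-/- against wildtype at 2 dpf 5 were called with only the compared groups in the fit, 1 with DESeq2 and 2 without tet2/3DM library 1 and tet2-/- library 1, where 24.6%, 10.9% and 13% of all genes were. With each library left out in turn the calls ranged from 0 to 1 in tet2/3DM and from 16 to 35 between the wildtype ages. Libraries with the same replicate number correlated at -0.344 to 0.264 in their deviations from the group means, and 7 of 30 pairs were above 0.1. Those with different numbers correlated at -0.456 to 0.605, with 17 of 60 pairs above 0.1. With 3 libraries a group these correlations cannot decide whether equal numbers share a clutch or sorting run. With a replicate block 30 members were called between the wildtype ages, 29 of them among the 31, and 0 in the other comparisons. The share of all genes called with the replicate block is not given here. Over the main fit and every alternative, the block and the left-out libraries included, calls over all genes ranged as follows. They were 688 to 7729 in tet2/3DM, 47 to 4005 in tet3-/-, 0 to 111 in tet2-/- and 1845 to 7497 between the ages. The share of promoters with a motif was not run, for want of promoter sequences. With 3 libraries a group, the 95% interval of a member reached 0.42 on the log2 scale to either side of its estimate in the median; a change of -0.62, that of cdc6 in tet3-/-, missed the adjusted threshold.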
